A study of Homo sapiens with 6 samples.

Results

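SLC7A11 and 9 further amino acid transporter genes were followed in MOLM-14 cells, an established human acute myeloid leukaemia line with an MLL-AF9 rearrangement. Cells were kept for 24 h in 10 nM cortistatin A (CA) or in the vehicle DMSO. CA is a steroidal alkaloid that blocks CDK8 and CDK19, a pair of kinases in the Mediator complex. Wells were plated in triplicate, and RNA of each of the 3 CA and 3 DMSO samples was hybridised to its own Affymetrix U133 Plus array. The members were every probe set annotated to only 1 of the 10 genes, which gave 10 of 19775 genes and 27 of the 54613 probe sets tested. A probe set is a group of short probes read together, and its value is a log2 intensity. SLC7A1 and SLC1A4 had 5 probe sets each, SLC38A1 had 4, SLC7A11, SLC7A6 and SLC38A2 had 3 each, and SLC7A5, SLC7A7, SLC3A2 and SLC1A5 had 1 each. Probe sets of 1 gene read the same transcripts and are not replicates. Of the 27, 14 end in _s_at and 3 in _x_at, endings that mark probe sets which can match several transcripts or genes.

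Amino acids cross the plasma membrane through carriers of several families. SLC7A11, SLC7A5, SLC7A6 and SLC7A7 are light chains that reach the membrane bound to the heavy chain SLC3A2. SLC7A11 exchanges extracellular cystine for glutamate and so supplies the cysteine of glutathione, while SLC7A5 exchanges large neutral amino acids such as leucine for glutamine. SLC1A5, SLC38A1 and SLC38A2 carry small neutral amino acids including glutamine, serine and alanine. SLC1A4 carries alanine, serine and cysteine, and SLC7A1 imports arginine and lysine. The transcription factor ATF4, which is translated when amino acids run short, and NRF2, encoded by NFE2L2 and released under oxidative stress, are known activators of SLC7A11.

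Across probe sets, pairs of arrays within a group had a Pearson r of 0.998, and pairs from both groups of 0.996 to 0.997. Of the myeloid leukaemia markers, 12 of 14 were measured. Of these, 6 were above the upper quartile of the arrays (7.67 to 7.68) on all 6, FLT3 and MPO among them, and 1, FCGR1A, was below the median on all 6. Of 16 measured markers of other cell types, PECAM1 alone was above that quartile on all 6 arrays and 10 were below the arrays' median. Their summed log2 level was 85.9 to 87.0 in CA, against 85.3 to 85.5 in DMSO. Of their 38 probe sets 1, that of PECAM1, was called, higher in CA. At an unadjusted limma p under 0.05, 5 of the 38 were higher and 0 lower. The myeloid markers summed to 99.4 to 100.0 in CA, against 102.7 in each DMSO array. Of their 25 probe sets, 3 of 2 genes were called higher and 8 of 4 genes lower, 3 of CD36 among the 8. Over all probe sets, 3.001% were called higher and 2.01% lower. RNA integrity was read from control probe sets at both ends of a transcript. For GAPDH the 3' end exceeded the 5' end by 0.48 in CA and 0.38 in DMSO (exact permutation p = 0.1, 2-sided, the smallest that 3 against 3 arrays allow), and for ACTB by 2.38 in CA and 2.27 in DMSO (exact p = 0.3). The part of these differences in the results below was not tested.

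Among the 10 transporters, SLC7A11 was called lower in CA and no other gene was called. Its transcript stood at 60.3% and 58.3% of the DMSO level on its brighter probe sets. A call is an adjusted p under 0.05 by limma, with Benjamini-Hochberg adjustment over all 54613 probe sets. By that rule 2 of the 27 transporter probe sets were called, where 5.01% of all probe sets were. Both were lower in CA and of SLC7A11, where 2.01% of all probe sets were called lower. None was called higher, where 3.001% of all were (0 of 27 by limma; at an unadjusted p under 0.05, 6 were lower and 1 higher). The median change of the 27 was 0.00 on the log2 scale, against -0.01 over all probe sets.

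SLC7A11, the cystine and glutamate exchanger, lies at chr4:138164097-138242349 (GRCh38.p14). Probe set 209921_at read 7.95, 8.03 and 8.06 in CA, against 8.72, 8.78 and 8.74 in DMSO (log2). Every CA array was below every DMSO array. It averaged 8.02 ± 0.06 in CA and 8.75 ± 0.03 in DMSO (SD, n = 3), a log2 change of -0.73 (SE 0.05, 95% confidence interval -0.85 to -0.61, limma adjusted p = 5.91e-04). On the linear scale CA was at 60.3% of DMSO.

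Probe set 217678_at gave a change of nearly the same size. It read 7.57, 7.82 and 7.55 in CA, against 8.41, 8.42 and 8.43 in DMSO, again without overlap. CA was at 58.3% of DMSO, a log2 change of -0.78 (SE 0.08, interval -0.96 to -0.59, limma adjusted p = 0.00269). CA replicate 2 was the highest of the CA arrays here and also on 207528_s_at. Ranked by size among the 1097 probe sets called lower, 217678_at was number 54 and 209921_at number 66.

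The dimmest SLC7A11 probe set, 207528_s_at, pointed the same way without a call. It read 5.17, 5.59 and 5.06 in CA, against 5.77, 5.72 and 5.45 in DMSO. The groups overlapped, since CA replicate 2 was above DMSO replicate 3. The log2 change was -0.37 (interval -0.72 to -0.02, limma adjusted p = 0.240), and all 6 values lay near the arrays' median of 5.59 to 5.62. Subtracting 207528_s_at from 217678_at within each array left CA lower than DMSO by a log2 difference of -0.40, and from 209921_at by -0.36 (exact permutation p = 0.1 and 0.2, adjusted 0.167 and 0.250 over 5 such differences, which were chosen after the values were seen). With 3 arrays a group such a difference cannot pass 0.05. An array of bulk RNA does not tell fewer cells with a transcript from less of it per cell.

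**Figure D1:**
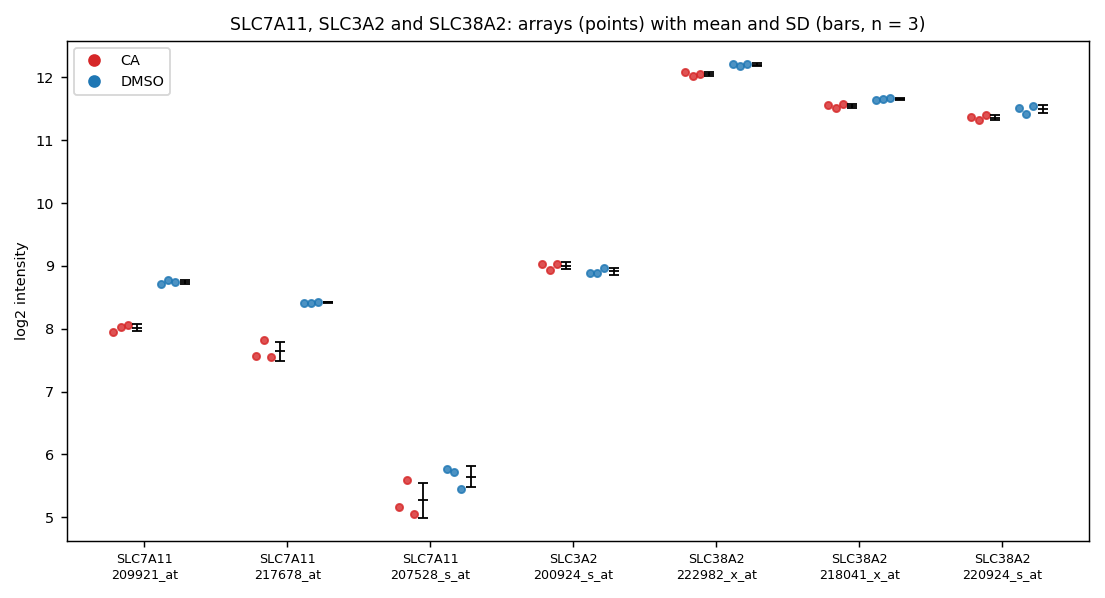
Log2 intensity (vertical axis) of the probe sets of SLC7A11, SLC3A2 and SLC38A2, with CA in red left of DMSO in blue; points are arrays, bars the mean and SD (n = 3). The CA arrays of 209921_at and 217678_at lie wholly below the DMSO arrays (means of 8.02 in CA and 8.75 in DMSO, and of 7.64 in CA and 8.42 in DMSO), those of SLC38A2 by at most 0.15 on average, and those of SLC3A2 overlap DMSO; heights of different probe sets cannot be compared.

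The heavy chain SLC3A2 (chr11:62856109-62888860), the partner with which SLC7A11 works at the membrane, was not called. Its single probe set 200924_s_at read 9.03, 8.94 and 9.04 in CA, against 8.89, 8.88 and 8.97 in DMSO. The groups overlapped, and the log2 change was 0.09 (interval -0.04 to 0.22, limma adjusted p = 0.434). Taken within each array, SLC7A11 209921_at minus SLC3A2 was -1.08, -0.91 and -0.97 in CA, against -0.17, -0.10 and -0.23 in DMSO, a difference of -0.82 between groups. This separation had an exact permutation p = 0.1 (adjusted 0.167), the smallest possible. The same subtraction against each of the 24 probe sets of the other 9 transporters left every CA array below every DMSO array in 24 of 24. All 24 share the values of 209921_at, which was chosen for its fall, and the other probe sets changed by only -0.15 to 0.25. The count therefore adds no support. Such a subtraction gives unequal change, not the absolute level of either transcript.

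The other light chains of SLC3A2 were not called. SLC7A5 (chr16:87830023-87869507), the leucine exchanger, read 10.60, 10.55 and 10.64 in CA, against 10.61, 10.60 and 10.56 in DMSO. Its log2 change of 0.00 had an interval of -0.11 to 0.12 (limma adjusted p = 0.978), so that a change of 1.2-fold lies outside it. SLC7A6 and SLC7A7 both exchange cationic for neutral amino acids, with sodium. SLC7A6 (chr16:68264526-68301819) was at 0.03, 0.12 and 0.25 on its 3 probe sets, the largest change on the dimmest. That probe set, 203578_s_at, read 6.73, 6.85 and 6.75 in CA, against 6.44, 6.45 and 6.69 in DMSO. All 3 CA values were higher, but adjusted p was 0.144. SLC7A7 (chr14:22773222-22819791), found in monocytes and macrophages, read 7.40, 7.58 and 7.60 in CA, against 7.48, 7.30 and 7.42 in DMSO, with overlap (0.13, interval -0.05 to 0.31, adjusted p = 0.448).

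**Figure D2:**
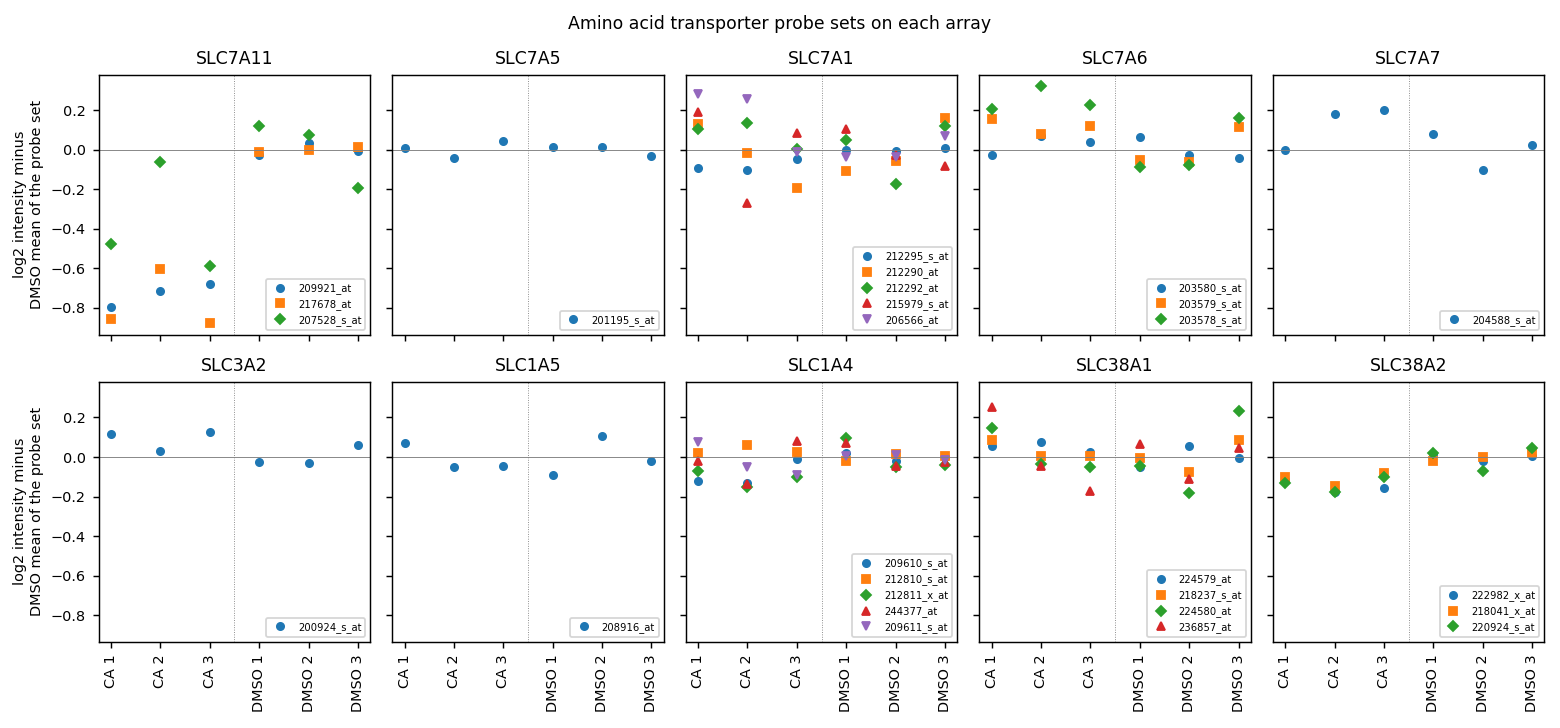
Each of the 27 transporter probe sets on each array, as log2 intensity minus the mean of its own DMSO arrays (vertical axis), with the 3 CA arrays left of the 3 DMSO arrays in every panel; symbols and colours mark probe sets. SLC7A11 is the 1 panel with CA points more than 0.5 below DMSO, and in the SLC38A2 panel all CA points lie below 0.

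SLC7A1 (chr13:29509414-29595688), the arginine and lysine importer that needs no heavy chain, had 5 probe sets with changes of -0.08 to 0.18 on the log2 scale and no call. The brightest, 212295_s_at, read 11.69, 11.68 and 11.74 in CA, against 11.78, 11.78 and 11.79 in DMSO. These groups did not overlap, but the change was -0.08 (interval -0.19 to 0.03, limma adjusted p = 0.407). On the dimmest, 206566_at, the change was 0.18 (interval -0.03 to 0.38, adjusted p = 0.342), with DMSO at 4.26, 4.26 and 4.37, near the lower quartile of the arrays (4.11 to 4.14). The sign thus differed between probe sets of the gene.

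The neutral amino acid exchangers of the SLC1 family were close to DMSO. SLC1A5 (chr19:46774883-46788594), a major glutamine carrier of dividing cells, read 7.46, 7.34 and 7.35 in CA, against 7.30, 7.50 and 7.37 in DMSO. The change was -0.01 (interval -0.17 to 0.15, limma adjusted p = 0.964). SLC1A4 (chr2:64988479-65023865), which exchanges alanine, serine and cysteine, changed by -0.11 to 0.04 over 5 probe sets, with adjusted p of 0.399 to 0.894. Its values did not overlap on 212811_x_at, which was lower at -0.11, and on 212810_s_at, which was higher at 0.04.

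SLC38A1 and SLC38A2 are sodium-coupled carriers of glutamine and other small neutral amino acids, and their genes neighbour each other on chromosome 12 (chr12:46183063-46269043 and chr12:46358188-46372773). SLC38A1 changed by 0.01 to 0.05 over 4 probe sets, none called (limma adjusted p of 0.657 to 0.971). SLC38A2 was slightly lower on each of its 3 probe sets. Probe set 222982_x_at read 12.09, 12.03 and 12.05 in CA, against 12.22, 12.19 and 12.21 in DMSO, or 90.2% of DMSO. The CA and DMSO values of SLC38A2 did not overlap on any of the 3, with log2 changes of -0.15, -0.11 and -0.14. Over all probe sets, 25.1% had groups that did not overlap. The 3 probe sets read the same transcripts, so they do not count as separate support.

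With adjustment over all probe sets SLC38A2 was not called (limma adjusted p = 0.130, 0.268 and 0.236). The brightest probe set was called lower when each gene was represented by its brightest probe set (adjusted p = 0.0482), among probe sets with a mean log2 of at least 5 (0.0428) and with an intensity trend and robust moderation (7.26e-04). With that moderation the other 2 SLC38A2 probe sets and SLC7A1 212295_s_at were called lower as well (0.0132, 0.0169 and 0.0473).

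**Figure D3:**
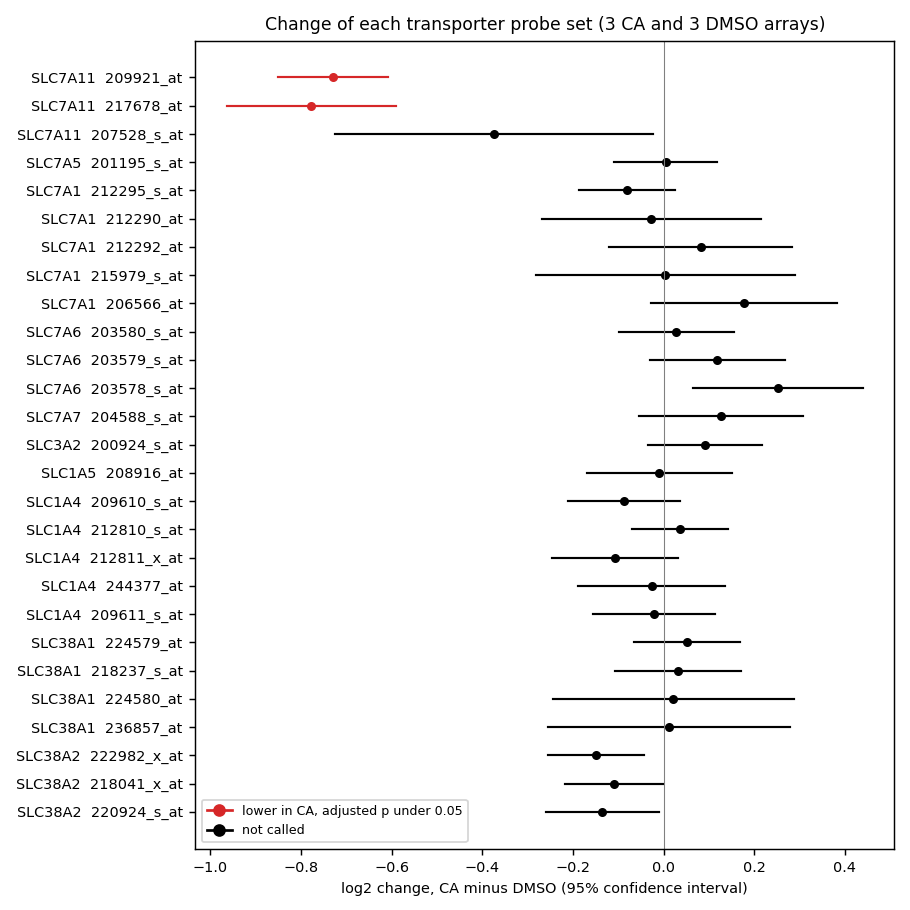
Log2 change of CA minus DMSO (horizontal axis) with its 95% confidence interval for the 27 transporter probe sets, red where called lower and black where not called. The intervals of 209921_at and 217678_at end at -0.61 and -0.59, and that of 207528_s_at, not called, at -0.02. For the other 9 genes the points lie between -0.15 and 0.25, with intervals from -0.28 to 0.44.

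Without SLC7A11 the 24 probe sets of the other 9 genes changed by -0.15 to 0.25, with a median size of 0.07 against 0.08 over all probe sets. In 15 of the 25 uncalled transporter probe sets the 95% interval lay within 1.2-fold in either direction (0.26 on the log2 scale), so larger changes of these 15 lie outside their intervals. The CA and DMSO values did not overlap in 9 of the 27, 7 lower and 2 higher, or 33.3%, where 25.1% of all probe sets had groups that did not overlap.

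Promoter sequence was read from RefSeq windows of GRCh38.p14 that run from 250 bases before to 50 bases after an annotated start. A gene can have several such starts. Of the 10 genes 9 matched by symbol, with 17 windows, all but SLC7A11. The windows were searched on both strands for TGATGNAA, the core of the amino acid response element that ATF4 binds, and for TGACNNNGC, the core of the antioxidant response element that NRF2 binds. TGATGNAA was in 5 of the 17 windows, those of SLC3A2, SLC7A1, SLC38A1, SLC1A4 and SLC1A5, and in 3.63% of all 34796 windows. TGACNNNGC was in 6 of the 17, of SLC3A2, SLC7A1, SLC7A5, SLC7A6, SLC7A7 and SLC1A5, and in 13.3% of all. The windows of NQO1, a known NRF2 target, and of CTH, a gene of the ATF4 list, were also searched. That of NQO1 held no TGACNNNGC and that of CTH no TGATGNAA. A window without a match says nothing of sequence outside it. The 2 motifs do not overlap in the windows shown, and a match is a description of the letters only. The windows of SLC3A2 (chr11:62881449-62881748, plus strand) and SLC7A1 (chr13:29595639-29595938, minus strand) are shown because their genes carried the element and were not called. That of ASNS (chr7:97872359-97872658, minus strand), an asparagine synthetase gene and known ATF4 target, is shown because its gene was called lower. Capitals mark TGATGNAA, which in SLC3A2 is on the opposite strand.
SLC3A2: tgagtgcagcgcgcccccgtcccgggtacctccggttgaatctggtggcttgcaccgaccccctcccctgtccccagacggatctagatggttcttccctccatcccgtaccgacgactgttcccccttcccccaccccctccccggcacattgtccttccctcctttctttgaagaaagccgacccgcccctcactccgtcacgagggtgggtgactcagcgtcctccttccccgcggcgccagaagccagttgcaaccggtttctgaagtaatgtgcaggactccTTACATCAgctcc
SLC7A1: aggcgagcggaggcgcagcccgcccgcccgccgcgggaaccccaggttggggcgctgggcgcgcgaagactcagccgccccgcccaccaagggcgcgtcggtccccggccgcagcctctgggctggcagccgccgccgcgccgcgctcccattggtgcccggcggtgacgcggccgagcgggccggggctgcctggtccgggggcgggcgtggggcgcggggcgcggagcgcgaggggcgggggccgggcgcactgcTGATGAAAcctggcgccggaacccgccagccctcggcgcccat
ASNS: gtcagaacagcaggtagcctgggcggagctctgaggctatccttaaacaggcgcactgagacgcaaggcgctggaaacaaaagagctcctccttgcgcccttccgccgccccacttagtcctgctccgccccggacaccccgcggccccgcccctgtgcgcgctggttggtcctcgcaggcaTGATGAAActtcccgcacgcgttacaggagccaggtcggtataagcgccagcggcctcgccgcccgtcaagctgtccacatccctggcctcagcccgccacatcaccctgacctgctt
From the start in its own window, the match begins 37 bases after in SLC3A2, 7 after in SLC7A1 and 68 before in ASNS. The SLC3A2 start shown lies inside the gene, and the window at the gene's outer start (chr11:62855859-62856158) had no match. In SLC1A4 and SLC1A5 too, the outermost window had no match. Their matches, and that of SLC38A1, lay at starts further inside the gene. The 3 windows were picked by whether their genes were called (ASNS lower on 1 of 2 probe sets, SLC3A2 and SLC7A1 not). They therefore cannot test whether the motif goes with a call.

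Genes of the ATF4 pathway moved in both directions. Of 51 probe sets of 27 genes, 5 were called higher and 3 lower, with a median of -0.04. Beside this count and those of the lists below stand the shares over all probe sets, 3.001% higher and 2.01% lower. ASNS fell on 1 of 2 probe sets, at 10.70, 10.76 and 10.84 in CA, against 11.06, 11.10 and 11.05 in DMSO (205047_s_at, log2 change -0.30, limma adjusted p = 0.0253). TRIB3, a pseudokinase induced by ATF4, was lower on 1 of 2 probe sets (-0.24, adjusted p = 0.0417) and EIF2AK2, the double-stranded RNA kinase, on 1 of 3 (-0.27, 0.0280), both chosen after their values were seen. ATF4 itself read 12.53, 12.55 and 12.65 in CA, against 12.73, 12.77 and 12.81 in DMSO. These groups did not overlap, but the change of -0.19 was not called (adjusted p = 0.103), and ATF4 is known to be regulated mainly at translation.

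Higher in the same list were CTH, VLDLR and, picked with their values known, the stress-induced transcription factor ATF3 on 1 of 3 probe sets (0.27, the others at -0.06 and 0.14) and the mTORC1 inhibitor DDIT4 (0.26). CTH, cystathionine gamma-lyase, makes cysteine inside the cell from cystathionine. Its probe set 217127_at read 8.16, 8.36 and 8.18 in CA, against 7.29, 7.39 and 7.47 in DMSO. The log2 change was 0.85 (SE 0.08, limma adjusted p = 0.00158), and on 206085_s_at it was 0.72 (0.00150), so both probe sets of the gene rose. VLDLR, a lipoprotein receptor, rose by 0.50 (adjusted p = 0.00220).

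Among genes of glutathione and cystine use, 3 of 51 probe sets were called higher and 7 lower, with a median of 0.03. The higher ones were the 2 of CTH and 1 of the 13 of CD44, a surface protein known to stabilise SLC7A11 and likewise chosen afterwards. MGST1, a membrane-bound glutathione transferase, was lower on 4 of its 5 probe sets. Probe set 1565162_s_at read 11.51, 11.51 and 11.55 in CA, against 11.92, 11.99 and 11.95 in DMSO (-0.43, limma adjusted p = 0.00347), and its relative MGST2 fell by a similar amount (-0.41, 0.00495). GLRX, a glutaredoxin chosen after its values were seen, supplied the other 2 lower probe sets. The genes of glutathione synthesis were not called. GCLC, the catalytic subunit of glutamate-cysteine ligase, was at 0.07 on its brightest probe set (limma adjusted p = 0.573). GCLM, the modifier subunit, was at 0.14 on 203925_at, 1 of its 3 probe sets (0.185), where the groups did not overlap. GPX4, which uses glutathione to reduce lipid peroxides, was at -0.12 (0.280). These 3 were named for their role after their values were seen.

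NRF2 pathway genes were also split. Of 45 probe sets of 19 measured genes, 2 (of 2 genes) were called higher and 4 (of 2 genes) lower, with a median of 0.05. NQO1, a quinone reductase and known NRF2 target, was lower on all 3 of its probe sets, by -0.38 to -0.43. Probe set 201468_s_at read 8.59, 8.64 and 8.53 in CA, against 9.06, 9.00 and 9.00 in DMSO (limma adjusted p = 0.00522). HMOX1, heme oxygenase, and MAFF, a small partner of NRF2, were higher (0.50 and 0.62, adjusted p = 0.0169 and 0.00148), MAFF on 36711_at. The other MAFF probe set, 205193_at, was at 0.19 and not called (0.135). NFE2L2 was at -0.00, -0.04 and -0.09 on its 3 probe sets, none called.

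**Figure D4:**
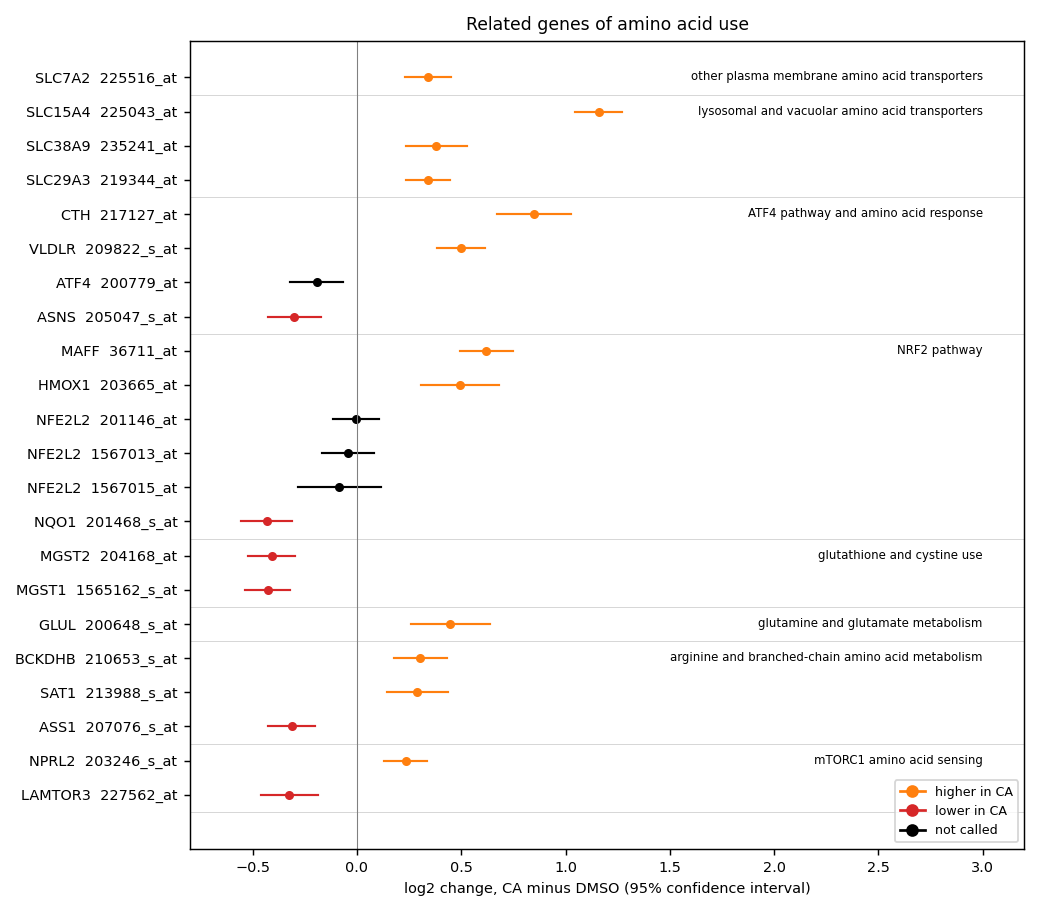
Log2 change of CA minus DMSO (horizontal axis) with 95% confidence intervals for the named probe sets of related lists and for ATF4 and NFE2L2, orange where called higher, red where called lower and black where not called; list names stand at the right. SLC15A4 (1.16) and CTH (0.85) are highest, NQO1 and MGST1 (both -0.43) lowest.

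Of the other plasma membrane amino acid transporters, 1 of 63 probe sets was called, that of SLC7A2, a cationic amino acid importer and relative of SLC7A1. SLC7A2 225516_at read 9.88, 9.83 and 9.91 in CA, against 9.54, 9.55 and 9.51 in DMSO (0.34, limma adjusted p = 0.00923). Its 2 dim probe sets were at 0.27 and -0.23, uncalled. Among lysosomal carriers 7 of 31 probe sets, of 5 genes, were called higher and 1 lower, with a median of 0.05. Over all probe sets 3.001% were called higher and 2.01% lower. SLC15A4, which carries histidine and small peptides out of the lysosome, read 11.21, 11.16 and 11.17 in CA, against 10.02, 9.98 and 10.06 in DMSO on 225043_at (1.16, adjusted p = 8.44e-05), and 225057_at was higher by as much (1.16), while the dim 229503_at was at -0.04 and not called. SLC38A9, the lysosomal arginine sensor of mTORC1, rose by 0.38 on 1 of 2 probe sets (0.0186; the other at 0.21). SLC29A3, at 0.34 (0.00817), carries nucleosides and not amino acids. Also higher, chosen after their values were seen, were CTNS, which exports cystine from the lysosome, on 2 of 3 probe sets (0.33 and 0.31), and SLC38A10 on 1 of 7 (0.28). SLC36A1, a proton-coupled carrier, was lower on 1 of 2 (-0.30, 0.0147; the other at -0.05).

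In amino acid metabolism, GLUL, which makes glutamine from glutamate, was higher on 3 of 4 probe sets (0.41 to 0.45, limma adjusted p of 0.00718 to 0.0272). Its list had 3 of 19 probe sets higher and 1 lower, that of ASNS, with a median of 0.05. Of the arginine and branched-chain list, 3 of 31 probe sets (of 2 genes) were higher and 2 (of 2 genes) lower (median -0.01). SAT1, a polyamine acetyltransferase, rose on 2 of 3 probe sets (0.28 and 0.29) and BCKDHB, of branched-chain keto acid breakdown, on 1 of 2 (0.30, the other at -0.16), while ASS1, which makes argininosuccinate, fell by 0.31. Of 73 probe sets of mTORC1 amino acid sensing, 1 was higher, of NPRL2 (0.23, its other probe set at 0.11), a subunit that restrains the Rag GTPases, and 1 lower, of LAMTOR3 (-0.32, its other at -0.12), a subunit that anchors them at the lysosome, with a median of -0.01. Of 16 probe sets of mitochondrial amino acid carriers 0 were called (limma; 0 higher and 3 lower at an unadjusted p under 0.05; median -0.08).

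**Figure D5:**
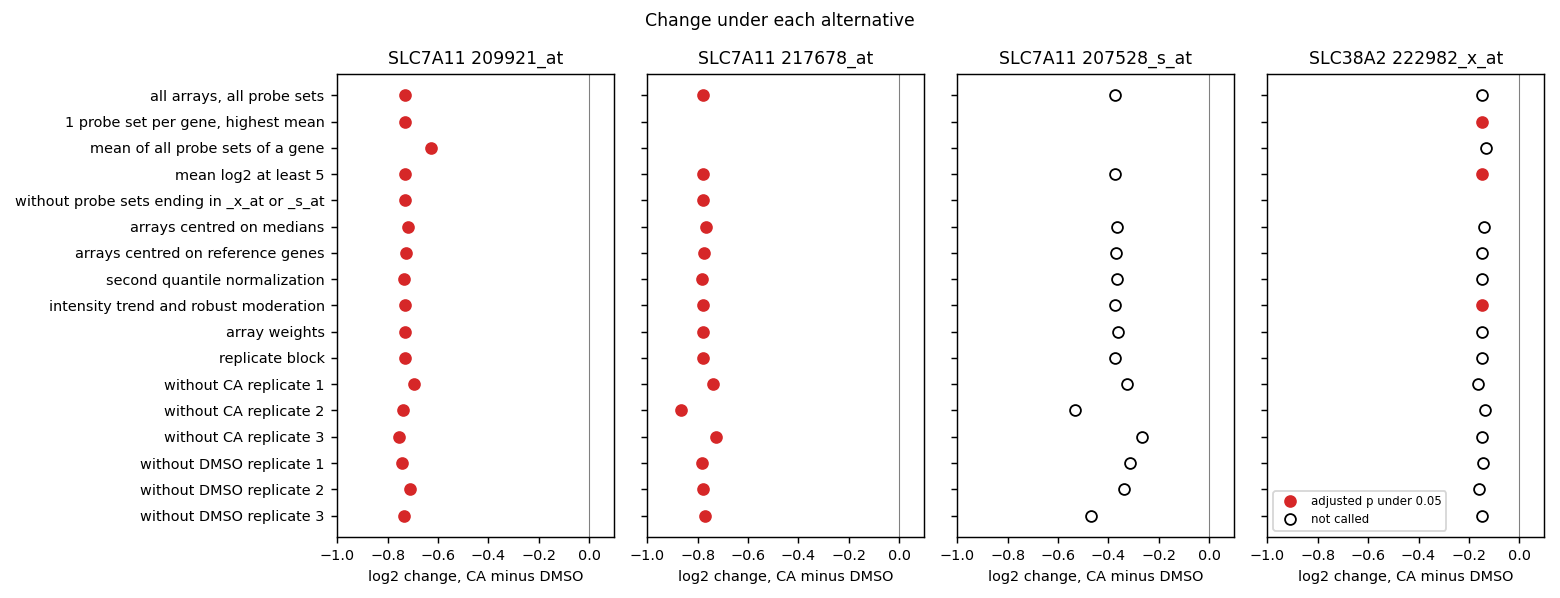
Log2 change of CA minus DMSO (horizontal axis) for the 3 SLC7A11 probe sets and SLC38A2 222982_x_at under each alternative (rows), filled red at an adjusted p under 0.05 and open otherwise; a missing point means that the probe set was not in that fit, and where probe sets were averaged the point is the gene's mean. The first SLC7A11 panel is called in every row, from -0.75 to -0.63 (the gene's mean), 217678_at in every row where present, from -0.86 to -0.73, and SLC38A2 in 3 rows.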

How the data were processed

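The authors deposited log2 intensities per probe set, and the submitters' processing notes name RMA and the affy package. Such values are background-corrected, quantile-normalized across arrays and summarised over probes, which compresses large changes; no version is given in the sources used here. Of 54675 probe sets, 62 controls were set aside. The platform annotation gave 1 symbol to 41091 of the other 54613, several to 1801 and none to 11721; 41037 matched a GRCh38.p14 gene table by Entrez number, with 0 symbols changed. All 54613 were fitted by limma 3.58.1 in R 4.3.3 (lmFit, eBayes, 2-sided, no covariates, no filter) on 3 CA and 3 DMSO arrays, after a test on simulated data. Exact permutation tests used scipy 1.17.1. On arrays there is no read depth, and their number limits precision. Nothing in the labels says that wells came from separate cultures, so p-values measure the spread between these samples, which may be technical. RNA was isolated with either of 2 kits, per the labels' protocols, and which sample had which is not given.

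The members and the lists were chosen with earlier results of these data known, and support nothing independently. Named were all member probe sets, up to 3 called genes of largest change per other list, ATF4 and NFE2L2, and up to 4 markers per list; other names are marked. Alternatives were 1 probe set or the mean per gene, a mean log2 of at least 5, leaving out _x_at and _s_at probe sets, 3 scalings, trend and robust moderation, array weights, a replicate block, stricter thresholds, and leaving out each array.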

Additional observations from a re-analysis of the deposited data

How the results depend on the processing

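SLC7A11 was called lower under every alternative that held its brighter probe sets, with 209921_at, or the gene's mean at the upper end, at -0.75 to -0.63 and 217678_at at -0.86 to -0.73. The count of transporter probe sets called lower was 2, and it differed under 3 of 18 alternatives. It was 1 of 10 genes with probe sets averaged per gene, where SLC7A11 was at -0.63, 3 of 25 probe sets at a mean of 5 or more, and 6 with an intensity trend and robust moderation. With 1 probe set per gene it was again 2, of SLC7A11 and SLC38A2. None was called higher under any of the 18.

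Over all features, 1639 were higher and 1097 lower. The counts were 1035 and 718 genes with probe sets averaged, 2473 and 2030 over probe sets whose mean log2 was 5 or more, and 868 and 570 without _x_at and _s_at probe sets. They were 3224 and 2849 with trend and robust moderation, 673 and 295 at adjusted p under 0.01, and 830 to 902 and 396 to 432 with any 1 array left out, with fewer samples. Leaving out any 1 of the 6 arrays (CA replicate 1, 2 or 3, DMSO replicate 1, 2 or 3) kept 0 transporter probe sets higher and 2 lower. With a replicate block 768 and 341 were called over all, and 0 and 2 of the transporters. Same-numbered arrays did not deviate together (r = -0.01, 0.03 and -0.03, never highest with the own number), so the numbers were not taken as pairs.

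Of 379 values of transporter probe sets, 349 kept direction and call. Where probe sets were averaged, the gene's mean stands in for its brightest probe set. In 24, of 11 probe sets near 0 and not called in the main fit, the sign turned, at limma adjusted p of 0.565 or more. The cause was not tested. SLC7A5 was at -0.0094 after a second quantile normalization, SLC1A5 at 0.00015 with arrays centred on medians, and SLC7A1 at 0.031 on the mean of its probe sets. That mean was set against 212295_s_at (-0.080), which by itself kept its sign. With 1 array left out, the ranges were -0.017 to 0.028 for SLC7A5, -0.054 to 0.045 for SLC1A5, -0.070 to 0.013 and -0.079 to 0.029 for SLC1A4 209611_s_at and 244377_at, -0.0069 to 0.074, -0.071 to 0.14 and -0.11 to 0.11 for SLC38A1 218237_s_at, 224580_at and 236857_at, and -0.11 to 0.056, -0.0059 to 0.14 and -0.091 to 0.14 for SLC7A1 212290_at, 212292_at and 215979_s_at. Uncalled values that kept their sign but moved by over 1.5 times were those of SLC7A7 (0.075 to 0.19), SLC7A6 203580_s_at (0.0073 to 0.062), SLC7A1 206566_at (0.12 to 0.27), SLC38A1 224579_at (0.027 to 0.079), and SLC1A4 212810_s_at (0.023 to 0.044) and 212811_x_at (-0.13 to -0.059). Dim probe sets, such as 207528_s_at, limit what can be said of a change.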
